A study of Mus musculus with 6 samples.

Results

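The clustered protocadherins are cell-surface adhesion proteins encoded by a tandem array of genes in an alpha, a beta and a gamma cluster. Members were taken by name, as every gene called Pcdha, Pcdhac, Pcdhb, Pcdhga, Pcdhgb or Pcdhgc followed by a number, which gave 58 of the 53390 genes with a value. These were 14 alpha, 22 beta and 22 gamma genes. They carry 57 distinct names, because the annotation gives the name Pcdha11 to 2 gene identifiers, ENSMUSG00000007440 and ENSMUSG00000102206.

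Poly(A)-selected RNA was sequenced from TKO mouse embryonic stem cells, a male line of 129S4/SvJae origin that lacks the DNA methyltransferases Dnmt1, Dnmt3a and Dnmt3b. TKO-serum cells (n = 3) grew in medium with 15% FCS and LIF at 500 U/ml. TKO-2i cells (n = 3) grew in serum-free N2B27 with the MEK inhibitor PD0325901 at 1 µM, the Gsk3 inhibitor CHIR99021 at 3 µM and LIF at 1000 U/ml. Both groups were kept without feeder cells, so medium, inhibitors and LIF dose differ together, and the replicates are labelled as biological. No library with intact methyltransferases was analysed here. Total estimated counts were 46228700, 44180642 and 43896549 in TKO-2i replicates 1, 2 and 3 and 38274042, 51932739 and 44827609 in TKO-serum replicates 1, 2 and 3. Values below are in this order of replicates.

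Each alpha or gamma mRNA joins a variable exon, which has its own promoter and encodes the extracellular and transmembrane part, to constant exons shared by the cluster. Beta genes encode their protein in a single exon. In neurons, promoters are chosen stochastically, with CTCF and cohesin acting at the chosen promoter and DNA methylation and Smchd1 acting in silencing, and the resulting combination of isoforms serves homophilic recognition between cells. The C-type members Pcdhac1, Pcdhac2, Pcdhgc3, Pcdhgc4 and Pcdhgc5 are less subject to this random choice.

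The knocked-out genes still gave reads. Dnmt1 was at 150, 154 and 155 CPM (counts scaled to the TMM-normalised library size) in TKO-2i and 129, 130 and 129 CPM in TKO-serum. Dnmt3a was at 7.14, 7.46 and 7.35 CPM in TKO-2i and 30.2, 29.4 and 30.7 CPM in TKO-serum, and Dnmt3b at 19.0, 20.3 and 20.6 CPM in TKO-2i and 43.1, 42.3 and 44.0 CPM in TKO-serum. Counts summed over a gene can include transcripts with a deletion, so these levels do not check the genotype.

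All 58 members lie on the plus strand of chromosome 18 (GRCm38). The alpha cluster runs from 36930184 to 37187661, the beta cluster from 37264938 to 37524479 and the gamma cluster from 37661793 to 37841873. All 14 alpha genes have the constant exons of 59, 89 and 2712 bases starting at 37156155, 37159265 and 37184946. All 22 gamma genes have those of 59 and 89 bases starting at 37825021 and 37833265, and the last exon, which starts at 37839903, is 1971 bases long in 17 of them and 1968 bases in 5. In a full-length alpha or gamma transcript such as that of Pcdhac2 or Pcdhgc3, 51.4% or 54.8% of bases are shared with no other member. Such bases are called the gene's own below, and genes outside the family were not compared. Reads from the shared bases were divided among members by the quantifier, so values of single alpha and gamma members are estimates.

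The clusters differed widely in level. Summed over its members, the alpha cluster stood at 0.264, 0.423 and 0.164 TPM (a level per transcript length and library) in TKO-2i and 0.371, 0.374 and 0.418 TPM in TKO-serum. The beta cluster stood at 0.176, 0.284 and 0.233 TPM in TKO-2i and 0.711, 0.850 and 0.973 TPM in TKO-serum. The gamma cluster stood at 27.1, 32.2 and 30.6 TPM in TKO-2i and 33.9, 36.5 and 36.3 TPM in TKO-serum. Alpha and beta transcripts were thus low in both media, and gamma transcripts made up nearly all of the family's signal.

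Of the 58 members, 24 passed the filter on low counts and were tested, namely 1 alpha, 2 beta and 21 gamma genes. By edgeR's quasi-likelihood test at an adjusted p of 0.05, 1 was higher and 16 were lower in TKO-2i, and 7 were not called. Over all 18177 genes tested, 62.5% were called, 31.9% higher and 30.6% lower. Pcdhb14, Pcdhb22 and Pcdhgb4, all among the 16, did not reach the filter's cutoff of 0.225 CPM in every TKO-2i library. They passed through TKO-serum, where they are high, so the filter favoured a fall in them. With at least 10 counts required in every library, 13 of 21 members were lower, and without a filter 18 of 55. The count of lower members was 10 without TKO-serum replicate 3. Log2 fold changes below are of TKO-2i over TKO-serum, with a median of 0.01 for all tested genes. Groups are said not to overlap where every library of 1 group lies above every library of the other. The share of all genes without overlap is not given here, so this only describes the values. In bulk RNA, fewer cells expressing a gene and less RNA per cell cannot be told apart.

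**Figure D1:**
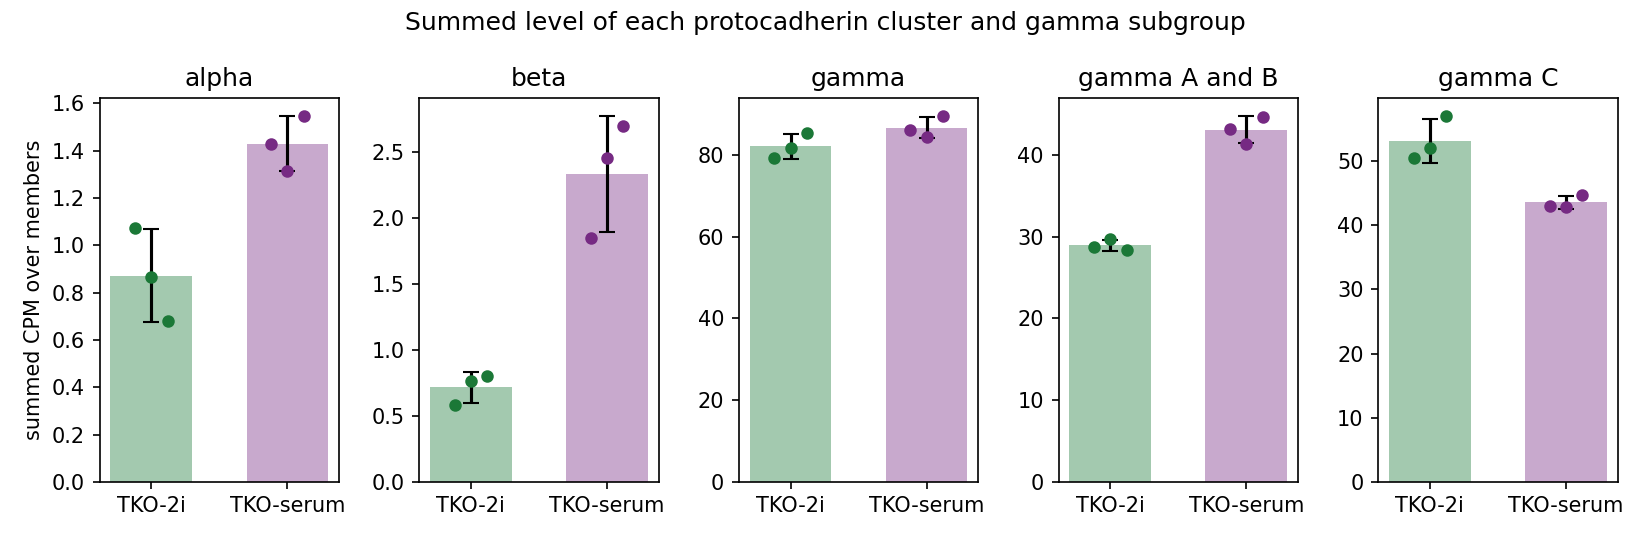
Summed CPM over the members of the alpha, beta and gamma clusters and of gamma subgroups in TKO-2i and TKO-serum; bars are means, error bars SD and points the 3 libraries of each group. Alpha, beta and gamma A and B sums are lower in every TKO-2i library than in any TKO-serum library, gamma C sums are higher in CPM but overlap in TPM, and the whole gamma sums overlap, with means of 82.1 and 86.7 CPM.

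Within the gamma cluster, Pcdhgc3 rose in 2i while most of the A and B members were lower. Pcdhgc3, a C-type member, had 1066, 1099 and 1106 counts in TKO-2i and 399, 562 and 484 in TKO-serum. Every TKO-2i library was above every TKO-serum library, also in CPM. Its mean was 6.32 ± 0.638 TPM in TKO-2i and 2.90 ± 0.122 TPM in TKO-serum (SD, n = 3), and its log2 fold change was 1.25 (SE 0.061, edgeR adjusted p = 7.28e-07), a 2.38-fold difference. On its full-length transcript alone it had 1013, 1051 and 1056 counts in TKO-2i and 352, 529 and 463 in TKO-serum. The difference thus lay on the full-length transcript, while its single-exon retained-intron form had 53, 49 and 50 counts in TKO-2i and 47, 33 and 21 in TKO-serum.

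Pcdhgc4, also C-type, had the highest TPM of the family, but 6.73% of the bases of the transcript that received nearly all its counts are its own. That transcript is 2272 bases long, of which 2119 are constant exons, and it had 1113, 1097 and 1245 counts in TKO-2i and 1200, 1658 and 1506 in TKO-serum. The full-length Pcdhgc4 transcript, with 2905 bases of its own, had 19, 30 and 6 counts in TKO-2i and 0, 8 and 13 in TKO-serum. The value of Pcdhgc4 therefore rests mainly on reads that could come from any gamma member. At the gene level it stood at 25.3, 25.6 and 29.5 CPM in TKO-2i and 31.3, 31.4 and 33.1 CPM in TKO-serum, without overlap. Its log2 fold change was -0.25 (SE 0.071, edgeR adjusted p = 0.0134), and the call was lost without TKO-serum replicate 3 (adjusted p = 0.0613).

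Pcdhgc5 had 63, 64 and 65 counts in TKO-2i and 53, 51 and 52 in TKO-serum. The groups did not overlap in CPM, but the log2 fold change of 0.35 (SE 0.175) was not called (edgeR adjusted p = 0.114). From 28 to 45 of these counts in each library lay on a retained-intron transcript, and its full-length transcript had 31, 28 and 15 counts in TKO-2i and 7, 6 and 7 in TKO-serum. With transcripts annotated as protein-coding alone, Pcdhgc5 was called higher in TKO-2i, with a log2 fold change of 1.83 (edgeR adjusted p = 0.00207).

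**Figure D2:**
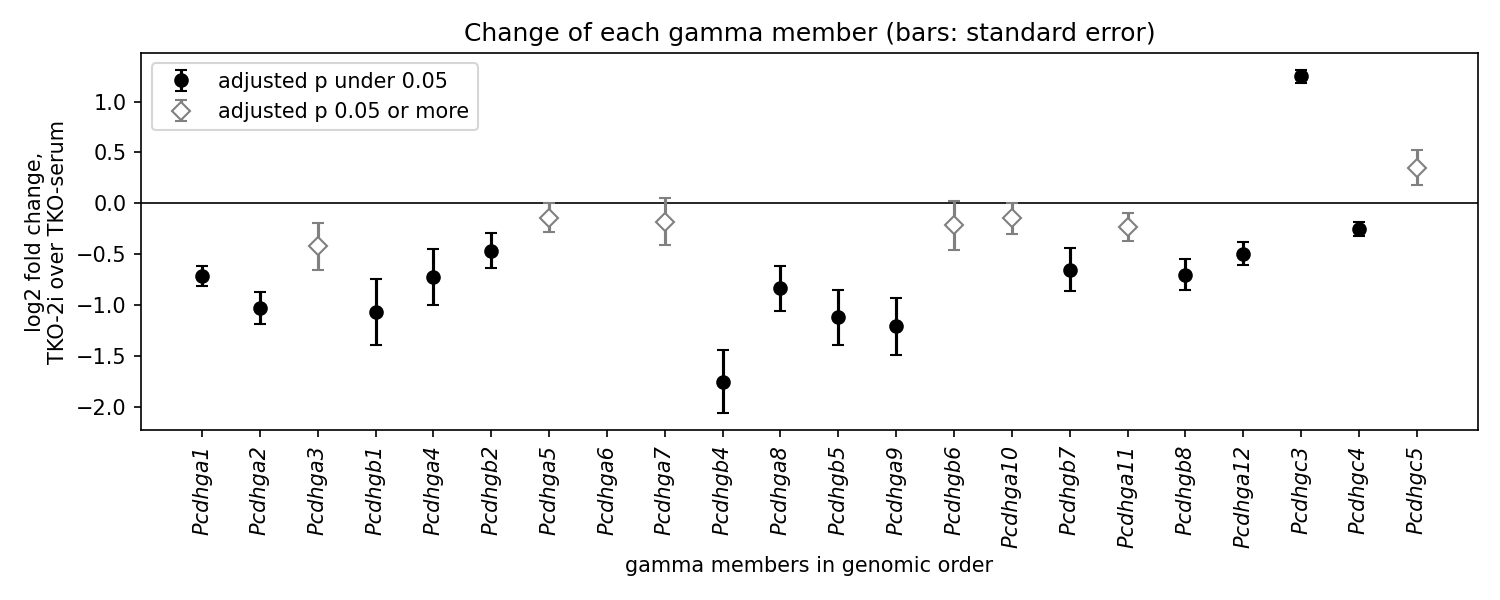
Log2 fold change of TKO-2i over TKO-serum for the 21 tested gamma members in genomic order, with standard errors; filled circles have an edgeR adjusted p under 0.05 and open diamonds do not. Pcdhgc3 at 1.25 stands above 0, the A and B members lie below 0, and Pcdhga6 was not tested.

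The A and B members encode the stochastically chosen gamma isoforms, though Pcdhgb8 is annotated as a polymorphic pseudogene. Of 12 A genes, 11 were tested and 6 were lower in TKO-2i, and of 7 B genes all were tested and 6 were lower. With protein-coding transcripts alone, Pcdhgb7 was the one B gene called. Pcdhgb1, Pcdhgb2 and Pcdhgb5 lost the call (edgeR adjusted p = 0.161, 0.204 and 0.282), and Pcdhgb4 and Pcdhgb8 were not tested. All counts of Pcdhgb8 lay on its pseudogene transcript. The log2 fold changes of Pcdhgb1, Pcdhgb2 and Pcdhgb5 were then -1.95, -1.06 and -0.75, against -1.07, -0.47 and -1.12 in the main fit. On these transcripts Pcdhgb1 had 0, 9 and 13 counts in TKO-2i and 31, 0 and 54 in TKO-serum. Pcdhgb5 had 41, 6 and 11 counts in TKO-2i and 31, 49 and 20 in TKO-serum, and both genes overlapped between groups. Pcdhgb2 had 0, 36 and 50 counts in TKO-2i and 57, 67 and 59 in TKO-serum. These values depend on how the quantifier divided counts between transcripts, so this fit cannot decide whether the falls hold. The lower gamma members, Pcdhgc4 included, then numbered 8 in place of 13. The log2 fold changes of these 18 tested genes were all below 0, from -1.75 to -0.14. The 6 not called were Pcdhga3, Pcdhga5, Pcdhga7, Pcdhga10, Pcdhga11 and Pcdhgb6. Of these, Pcdhga3 was called lower by edgeR without TKO-2i replicate 2 (adjusted p = 0.0118), and Pcdhga11 without TKO-2i replicate 1 (adjusted p = 0.0149) and with replicate number as a block (adjusted p = 0.0488). Pcdhga6, not tested, had 7, 11 and 3 counts in TKO-2i and 3, 2 and 2 in TKO-serum. All tested members kept their direction in each alternative fit that gave them a value, but the calls of Pcdhgb2, Pcdhga4, Pcdhgb1, Pcdhgb7 and Pcdhgb5 were lost in 11, 8, 4, 3 and 1 of these fits.

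Pcdhgb4 had the lowest log2 fold change of the tested gamma members. It had 9, 17 and 16 counts in TKO-2i and 38, 46 and 65 in TKO-serum. The groups did not overlap, and the log2 fold change was -1.75 (SE 0.311, edgeR adjusted p = 0.0012). In 5 libraries all its counts lay on a transcript of 2 exons that is not annotated as protein-coding and has 97.1% of its bases to itself. Its protein-coding transcript had 29 counts in TKO-serum replicate 3 and 0 in the others. Pcdhga9 had 18, 24 and 14 counts in TKO-2i and 38, 40 and 57 in TKO-serum. These groups did not overlap in CPM either, and the log2 fold change was -1.21 (SE 0.280, edgeR adjusted p = 0.00518).

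Pcdhga1, the most upstream gamma gene, had the highest TPM of the A and B members. It had 169, 169 and 149 counts in TKO-2i and 221, 317 and 302 in TKO-serum. Every TKO-2i library was lower in CPM than every TKO-serum library, and the log2 fold change was -0.72 (SE 0.097, edgeR adjusted p = 0.000245). Its single-exon transcript, which has no shared exon, held all of these counts in 5 libraries and 98 of 169 in TKO-2i replicate 1. The lower level in TKO-2i was thus seen on exon sequence that no other gamma member shares. Genes outside the family were not compared, and the lincRNA 3222401L13Rik ends just before Pcdhga1 on the same strand.

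In the gamma sum, lower A and B genes stood beside a higher Pcdhgc3. The 19 A and B genes together stood at 28.8, 29.7 and 28.3 CPM in TKO-2i and 43.2, 41.4 and 44.7 CPM in TKO-serum, a log2 ratio of means of -0.58 without overlap. The 3 C genes stood at 50.4, 52.1 and 57.0 CPM in TKO-2i and 43.0, 42.9 and 44.8 CPM in TKO-serum, a log2 ratio of 0.29 without overlap. In TPM the A and B ratio was -0.67, again without overlap, but the C ratio was -0.05 with overlap, so the C sum had no direction that held on both scales. The whole cluster stood at 79.2, 81.7 and 85.3 CPM in TKO-2i and 86.2, 84.3 and 89.5 CPM in TKO-serum. These totals overlapped, with a log2 ratio of -0.08 that became -0.25 in TPM, where the groups did not overlap, and 0.014 without Pcdhgc4, an alternative chosen after seeing the data. A direction for the gamma sum was thus not established.

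**Figure D3:**
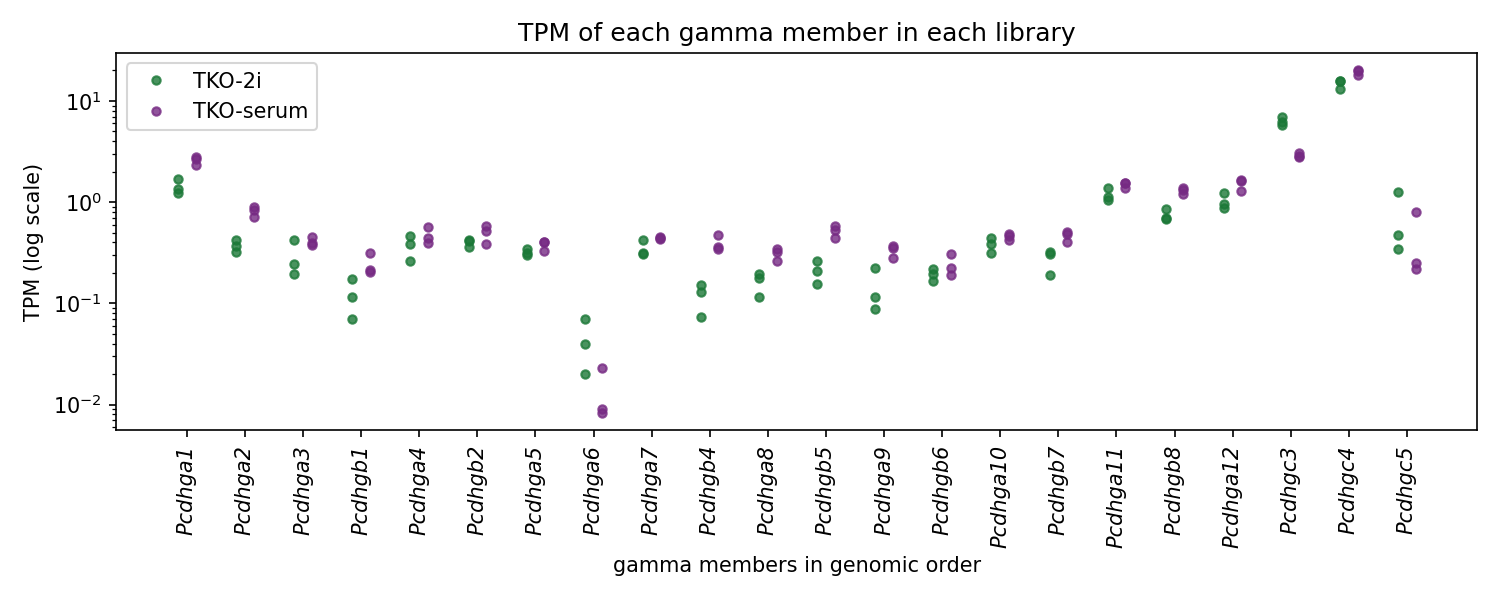
TPM on a log scale of each gamma member in each of the 3 TKO-2i and 3 TKO-serum libraries, in genomic order. Pcdhgc4 and Pcdhgc3 are the highest, and Pcdhgc3 is at 5.73 to 7.00 TPM in TKO-2i and 2.80 to 3.04 TPM in TKO-serum.

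At least 3 counts were found for 22, 22 and 22 gamma members in TKO-2i and 22, 21 and 21 in TKO-serum, so the gamma repertoire was almost fully detected in both media. Pcdhgc3 held 21.1%, 21.8% and 20.4% of the gamma TPM in TKO-2i and 8.27%, 8.33% and 7.92% in TKO-serum, and these shares did not overlap. Evenness was described by the inverse Simpson number, which equals the number of equally abundant members that would give the same concentration. Over all gamma members it was 3.37 ± 0.131 in TKO-2i and 3.19 ± 0.135 in TKO-serum (SD, n = 3), with overlapping values. With shares of counts in place of TPM it was 4.75 ± 0.229 in TKO-2i and 5.81 ± 0.140 in TKO-serum. These values did not overlap, and their direction was opposite to that of the TPM means, so the sign depended on the scale. With shares of counts and without Pcdhgc4, chosen after seeing the data, the inverse Simpson number was 4.36 ± 0.177 in TKO-2i and 10.9 ± 0.364 in TKO-serum.

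In the alpha cluster, only Pcdhac2, a C-type member next to the constant exons, was tested. It had 41, 26 and 24 counts in TKO-2i and 42, 57 and 50 in TKO-serum. The CPM values were lower in every TKO-2i library, with a log2 fold change of -0.65 (SE 0.222, edgeR adjusted p = 0.032). The call was lost when TKO-2i replicate 2 or 3 or any TKO-serum library was left out, with adjusted p up to 0.115, and in DESeq2 (adjusted p = 0.109). Pcdhac1, also C-type, had 0, 2 and 0 counts in TKO-2i and 2, 1 and 8 in TKO-serum.

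The other alpha genes were close to the floor of 3 counts. Pcdha4 had 5, 5 and 2 counts in TKO-2i and 0, 3 and 2 in TKO-serum. The Pcdha11 gene ENSMUSG00000102206 had 0, 3 and 0 counts in TKO-2i and 2, 0 and 0 in TKO-serum. Pcdha5 had 1, 2 and 2 counts in TKO-2i and 4, 3 and 7 in TKO-serum, without overlap but at counts near the floor. Of the 14 alpha genes, 9 never reached 3 counts in a library, and a difference in them was not detectable at this depth. Alpha sums were 48, 38 and 29 counts in TKO-2i and 55, 70 and 71 in TKO-serum, and in CPM the log2 ratio of means was -0.71 without overlap, while the TPM sums overlapped. Without Pcdhac2, an alternative chosen after seeing the data, the log2 ratio was -0.90 in CPM and 0.14 in TPM, with overlap in both. The TPM sums without it were 0.0527, 0.272 and 0.0371 in TKO-2i and 0.102, 0.0894 and 0.136 in TKO-serum, so the sign in TPM rests on TKO-2i replicate 2. Of its 0.272 TPM, 0.196 came from 3 counts on a Pcdha11 transcript of 625 bases, and these 3 counts also gave the overlap of the whole alpha sum in TPM.

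The beta cluster was lower in 2i at low counts. Pcdhb14 had 6, 8 and 7 counts in TKO-2i and 19, 47 and 42 in TKO-serum. The groups did not overlap, and the log2 fold change was -2.25 (SE 0.338, edgeR adjusted p = 0.000454), the lowest of the tested members. Pcdhb22, the last beta gene, had 7, 14 and 9 counts in TKO-2i and 14, 27 and 22 in TKO-serum. In CPM these did not overlap, with a log2 fold change of -0.98 (SE 0.322, edgeR adjusted p = 0.0261). That call was lost without TKO-2i replicate 1 or 3 or TKO-serum replicate 2 or 3, with adjusted p up to 0.0971, and in DESeq2 (adjusted p = 0.123), in both limma fits and with counts from length-scaled TPM, with adjusted p up to 0.202.

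Both beta calls are of genes that passed the filter through TKO-serum, where they are high. Without a filter both were still called (edgeR adjusted p = 2.43e-05 and 0.0349). That fit uses the same counts of the same genes, so it gives no separate support for their fall. The 20 beta genes not tested had, together, 14, 12 and 18 counts in TKO-2i and 38, 56 and 60 in TKO-serum. Among them Pcdhb8 had 0, 1 and 2 counts in TKO-2i and 6, 3 and 8 in TKO-serum. The untested genes as a sum were thus lower in 2i as well. Over the whole cluster the log2 ratio of mean CPM was -1.70, and -1.48 without Pcdhb14, an alternative chosen after seeing the data, without overlap in either. At least 3 counts were found for 4, 2 and 3 beta members in TKO-2i and 8, 13 and 12 in TKO-serum. Beta genes have no constant exons, so these counts do not depend on the division of constant-exon reads, though the longer Pcdhb22 transcript shares 455 bases with another member.

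Genes between the first and last member showed changes in both directions. Of 27 such genes, 6 were tested, 2 were higher and 3 lower in TKO-2i. For comparison with this list and those below, 31.9% of all tested genes were called higher and 30.6% lower. The lincRNA 4930517L18Rik, between the beta and gamma clusters, had 3, 5 and 7 counts in TKO-2i and 24, 44 and 41 in TKO-serum (log2 fold change -2.75, SE 0.336, edgeR adjusted p = 0.000137), without overlap. The lincRNA 3222401L13Rik, which ends at 37661742, just before Pcdhga1, had 91, 91 and 70 counts in TKO-2i and 96, 185 and 136 in TKO-serum (log2 fold change -0.64, SE 0.163, edgeR adjusted p = 0.00825). Both lie on the strand of the clusters, and 4930517L18Rik passed the filter through TKO-serum alone. Taf7, encoding a subunit of the general transcription factor TFIID, was at 156, 139 and 154 CPM in TKO-2i and 125, 118 and 118 CPM in TKO-serum, without overlap (log2 fold change 0.31, SE 0.062, edgeR adjusted p = 0.00229).

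Transcripts that overlap gamma genes are uncertain, because reads can be divided between them and members. Gm38182, which spans constant exons on the plus strand, had 34, 28 and 14 counts in TKO-2i and 6, 2 and 9 in TKO-serum (log2 fold change 2.19, SE 0.517, edgeR adjusted p = 0.00576), and passed the filter through TKO-2i alone. Gm26672, on the minus strand from 37746559 to 37768242, had 11, 25 and 15 counts in TKO-2i and 33, 49 and 34 in TKO-serum (log2 fold change -1.11, SE 0.300, edgeR adjusted p = 0.0113). The call of Gm26672 was lost in both limma fits and with counts from length-scaled TPM, with adjusted p up to 0.103. Neither Gm38182 nor Gm26672 overlapped between groups. The study describes strand-specific sequencing, but whether the counting used the strand is not given in the sources used here. The pseudogene Gm8242 was not called (log2 fold change 0.48, edgeR adjusted p = 0.343).

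Of 39 genes outside the clusters, within 500 kb on either side, 27 were tested, 5 were higher and 8 lower in TKO-2i, and the median log2 fold change was -0.01. The count of higher genes was 3 without TKO-2i replicate 1, 8 without TKO-2i replicate 2, 2 without TKO-2i replicate 3 and 2 without TKO-serum replicate 2. Arap3 (-2.74) and Dnd1 (-1.61) had the lowest log2 fold changes of those called, and E230025N22Rik (1.40) and Gnpda1 (0.59) the highest. E230025N22Rik reached the filter's cutoff in every TKO-2i library but not in every TKO-serum library, and its edgeR call was lost without TKO-2i replicate 3 (adjusted p = 0.0614) or TKO-serum replicate 2 (adjusted p = 0.059).

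Among 23 genes for promoter choice and silencing of the clusters, all were tested, 6 were higher and 4 lower. The median log2 fold change was 0.01. The share called was below the 62.5% of all tested genes. The count of lower genes was 9 without TKO-2i replicate 2 and 2 without TKO-2i replicate 3, TKO-serum replicate 1 or TKO-serum replicate 3. Ctcf, which binds the promoters of the clusters, was at 169, 173 and 170 CPM in TKO-2i and 159, 170 and 159 CPM in TKO-serum and was not called (log2 fold change 0.07, edgeR adjusted p = 0.243). The cohesin subunit Rad21 (0.11, adjusted p = 0.0654) and Smchd1 (0.01, adjusted p = 0.964) were not called by edgeR either, but Rad21 was called higher with replicate number as a block (adjusted p = 0.0244). Another cohesin subunit, Stag1, was called higher (0.33, edgeR adjusted p = 0.00662). The cohesin regulator Pds5a was called lower (-0.24, edgeR adjusted p = 0.0367), a call lost in 8 alternative fits. The sign for Ctcf and Smchd1 changed between alternative fits.

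Setdb1, a histone H3K9 methyltransferase, was at 278, 302 and 289 CPM in TKO-2i and 185, 196 and 191 CPM in TKO-serum, without overlap (log2 fold change 0.60). Uhrf1 (0.97), which binds hemimethylated DNA, was also higher. Dnmt3l (-3.31), a cofactor of the absent de novo methyltransferases, and the repressor Rest (-0.41) were lower. All 4 passed the edgeR test.

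Of 24 genes whose proteins bind or process clustered protocadherins, 23 were tested, 9 were higher and 6 lower, and the median log2 fold change was 0.02. The count of lower genes was 3 without TKO-2i replicate 3 or TKO-serum replicate 3. Adam10, the protease that sheds protocadherin ectodomains, was at 50.8, 60.3 and 49.4 CPM in TKO-2i and 30.3, 34.2 and 33.2 CPM in TKO-serum (log2 fold change 0.71). The groups did not overlap. The kinase Src (1.19) was higher as well, while Ptk2b (-2.16), a kinase that binds the alpha and gamma constant domains, and Ret (-0.72) were lower.

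The non-clustered protocadherins have no shared constant exons. Of 12 genes, 5 were tested, 1 was higher and 4 lower. Pcdh19 was at 9.73, 12.4 and 9.92 CPM in TKO-2i and 2.54, 3.31 and 3.20 CPM in TKO-serum, without overlap (log2 fold change 1.81, SE 0.137). Pcdh18 (-3.93) and Pcdh17 (-2.06) had the lowest log2 fold changes, and the call of Pcdh17 was lost in limma with a pseudocount of 1 TPM (adjusted p = 0.188). Of the 4 lower genes, 3 passed the filter through TKO-serum alone. Among 22 other cadherins, 18 were tested, 5 were higher, Dsc2 (0.79) and Dsg2 (0.71) foremost, and 11 lower, Cdh5 (-4.81) and Fat3 (-4.03) foremost. The call of Dsc2 was lost in limma with a pseudocount of 0.1 TPM (adjusted p = 0.0544). Of the 11 lower cadherins, 5 did not reach the filter's cutoff in every TKO-2i library and passed through TKO-serum, Cdh5 and Fat3 among them.

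Of 12 markers of neural progenitors or neurons, 10 were tested, 2 were higher (Ncam1, 0.57, and Nes, 0.54) and 8 lower, with Pax6 (-2.46) and Stmn2 (-1.98) lowest. The call of Ncam1 was lost in both limma fits (adjusted p = 0.129 and 0.121). The summed level of the list was 322, 292 and 310 CPM in TKO-2i and 593, 547 and 568 CPM in TKO-serum, without overlap. By mean CPM, Tubb3 was the highest in TKO-2i and Stmn2 in TKO-serum, Dcx never reached 3 counts, and Snap25 had at most 13 counts. The part of differentiating cells in the protocadherin changes was not tested.

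Of 8 pluripotency markers, all were tested, 2 were higher (Nanog, 0.60, and Esrrb, 0.33) and 5 lower, with Utf1 (-1.33) and Sall4 (-0.60) lowest. Their sum was 4586, 4113 and 4329 CPM in TKO-2i and 4767, 4560 and 4598 CPM in TKO-serum, and Pou5f1 was the most abundant. Pluripotency markers were thus high in every library. Of 8 fibroblast markers, 4 were tested, 1 was higher (Pdgfrb, 1.62) and 2 lower (Col1a2, -1.55, and Thy1, -0.42). Their sum was 19.9, 16.9 and 15.8 CPM in TKO-2i and 14.7, 13.5 and 13.2 CPM in TKO-serum, with Pdgfrb the highest by mean CPM in TKO-2i and Thy1 in TKO-serum. Lum, Postn and Col3a1 had at most 5 counts in a library. Dcn had 0, 1 and 0 counts in TKO-2i and 11, 14 and 8 in TKO-serum, without overlap, and was not tested.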

How the data were processed

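The authors deposited, for each library, estimated counts per transcript and TPM; the columns are those of salmon, but quantifier, version, index and use of strand are not given in the sources used here. The submitters' processing notes name mm10, and the study's RNA methods describe TopHat, RPKM and DEseq, which are not these columns. Of 136288 transcripts, 136100 matched GENCODE M21, and both measures were summed per gene. Estimated counts were rounded and tested with edgeR 4.0.16 in R 4.3.3 (filterByExpr, TMM, quasi-likelihood test, Benjamini-Hochberg adjustment over 18177 genes). The SE of a log2 fold change was its size over the root of the F statistic. CPM used TMM library sizes, and 3 counts correspond to 0.0564 to 0.0778 CPM. The test was also tried on simulated data, and the outcome is not reported here. Alternatives used DESeq2 1.42.0 and limma 3.58.1. Tables were made with pandas 2.3.3.

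Members and lists were chosen with earlier results of these data known. Members named in full were, per cluster, the 3 highest in TPM, the 2 largest called rises and falls, and the C-type genes. Genes of the other lists were named by a rule set after their values were seen: the 2 largest called rises and falls per list, Ctcf, Rad21, Smchd1, Setdb1, the 2 called genes of cohesin and its regulators (Stag1 and Pds5a), and all tested genes between the first and last member; 1 gene that this rule names is not reported here. The floor covers counting error only. The libraries came from a set run in pools, and the pool of each was not given.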

Additional observations from a re-analysis of the deposited data

How the results depend on the processing

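Over 355 fits of single members under alternatives, 309 kept direction and side of the threshold, 42 lost the call, 4 gained it and 0 changed direction. For named genes of the other lists, of 662 fits 632 kept both, 19 lost the call, 1 gained it and 10 changed direction. Without TKO-serum replicate 3 the lower members numbered 10, and over the libraries left out in turn 10 to 15. With protein-coding transcripts alone, 2 members were higher, both gamma, and 8 gamma members were lower. Pcdhgb4 and Pcdhgb8 were not in that fit, and the cause of the other changes was not tested.

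The alpha log2 ratio was -0.45 in TPM and, in an alternative chosen after seeing the data, -0.897 in CPM without Pcdhac2. In TPM that of the gamma C genes was -0.048 and that of the gamma A and B genes -0.67. The gamma log2 ratio was -0.25 in TPM and, in alternatives chosen after seeing the data, 0.014 without Pcdhgc4 and -0.41 without Pcdhgc3. At 10 counts, the mean number detected was 1 alpha member in either medium, 0.333 (TKO-2i) and 2 (TKO-serum) beta members, and 21 gamma members in TKO-2i. The inverse Simpson number of gamma members was 4.75 in TKO-2i and 5.81 in TKO-serum with shares of counts, and 4.36 and 10.9 without Pcdhgc4.

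Left-out libraries gave 2 to 9 lower genes for promoter choice, 3 to 8 lower genes that bind or process, and 2 to 8 higher outside neighbours. Ctcf was at -0.0184 and -0.0187 in limma fits with pseudocounts of 1 and 0.1 TPM. Smchd1 was at -0.012 with DESeq2 size factors, -0.00796 without a filter, -0.033 with 10 counts in every sample, -0.068 with protein-coding transcripts, and from -0.14 to 0.083 with a library left out.

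Whether replicate numbers pair the samples was not settled. Deviations of same-numbered libraries correlated at 0.452, 0.570 and 0.083, and no value for differently numbered libraries is given for comparison. With the replicate block, 17 members were lower, Pcdhga11 and Rad21 gained a call, 9 genes for promoter choice were lower and Smchd1 was at -0.000444.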
